A study of Mus musculus with 6 samples.

Results

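The heat shock proteins and chaperones are the proteins that fold other proteins, hold them soluble under stress and pass damaged ones on for degradation. The set described here held 38 genes, listed by symbol for their known roles. Array probes were assigned to a gene through the transcript accession for which each was designed. All 38 genes had a tested probe, 67 probes in all of the 56601 that were tested, and 23462 genes had a tested probe of known symbol. The set was split by role into 12 inducible and 9 constitutive chaperones of the cytosol, 6 cochaperones of HSP70 and HSP90, 3 mitochondrial chaperones, 6 chaperones of the endoplasmic reticulum (ER), and the heat shock factors *Hsf1* and *Hsf2*.

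The samples were microglia of young mice, enriched on Percoll and sorted as CD45lo Cx3cr1+ CD11b+ cells, and they compared *Bhlhe41* dTomato-Cre/+ mice (B41HET, 3 samples) with *Bhlhe41* dTomato-Cre/dTomato-Cre mice (B41KO, 3 samples) on the C57BL/6 background. *Bhlhe41* encodes a basic helix-loop-helix repressor that binds E-box DNA, and the inserted dTomato and Cre cassette ends translation of the targeted allele in every cell that carries it. Both groups carried dTomato and Cre, and the control kept 1 intact allele, so no wild-type sample entered the comparison. The methods state that each sample pooled cells of 10 to 15 mice while the labels name 3 mice per genotype, and p-values here measured only the spread between these samples. Each sample was hybridised to 1 single-colour array, and a level is the log2 of the quantile-normalised intensity of a probe. The comparison asks which transcripts of microglia differ when both copies of *Bhlhe41* are lost rather than 1.

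In the cytosol, HSP70 chaperones bind exposed hydrophobic stretches of client proteins, J-domain proteins deliver the clients, and HSP90 takes over clients close to their folded state. Inducible members are transcribed when heat shock factors bind heat shock elements, whereas constitutive members fold nascent chains in unstressed cells. Mitochondria and the ER hold HSP70, HSP60 or HSP90 relatives of their own, and the ER set is under the unfolded protein response. In microglia, inducible HSP70 transcripts are also known to rise while a brain is being dissociated.

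*Hspa1a*, which encodes an inducible cytosolic HSP70, was 3.94-fold lower in B41KO than in B41HET microglia, and no other chaperone gene moved as far. *Stip1*, *Hspb1* and *Hsf2* were lower by 1.49-fold to 1.59-fold, while *Bag3* and *Stub1* were 1.44-fold and 1.45-fold higher. With the brightest probe standing for its gene, and a gene called where its limma adjusted p was at most 0.05 and its log2 fold change at least 0.5 in size, 6 of the 38 genes (15.8%) were called. Of all 23462 genes 5.45% were called. The 4 called lower stand beside 4.01% of all genes called lower, and the 2 called higher beside 1.44% called higher. By probe, 8 of 67 were called against 5.07% of all probes, and they belonged to 7 genes. Of these probes 6 were lower and 2 higher, beside 3.34% and 1.72% of all probes. The B41HET and B41KO samples did not overlap for 17 of the 38 genes (44.7%), beside 32.2% of all genes. The median log2 fold change of the set was -0.04, that of all genes was 0.0067, and 17 of the 38 genes had a positive value beside 51.2% of all genes. Members thus lay on both sides of 0, and what was called was called gene by gene.

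**Figure D1:**
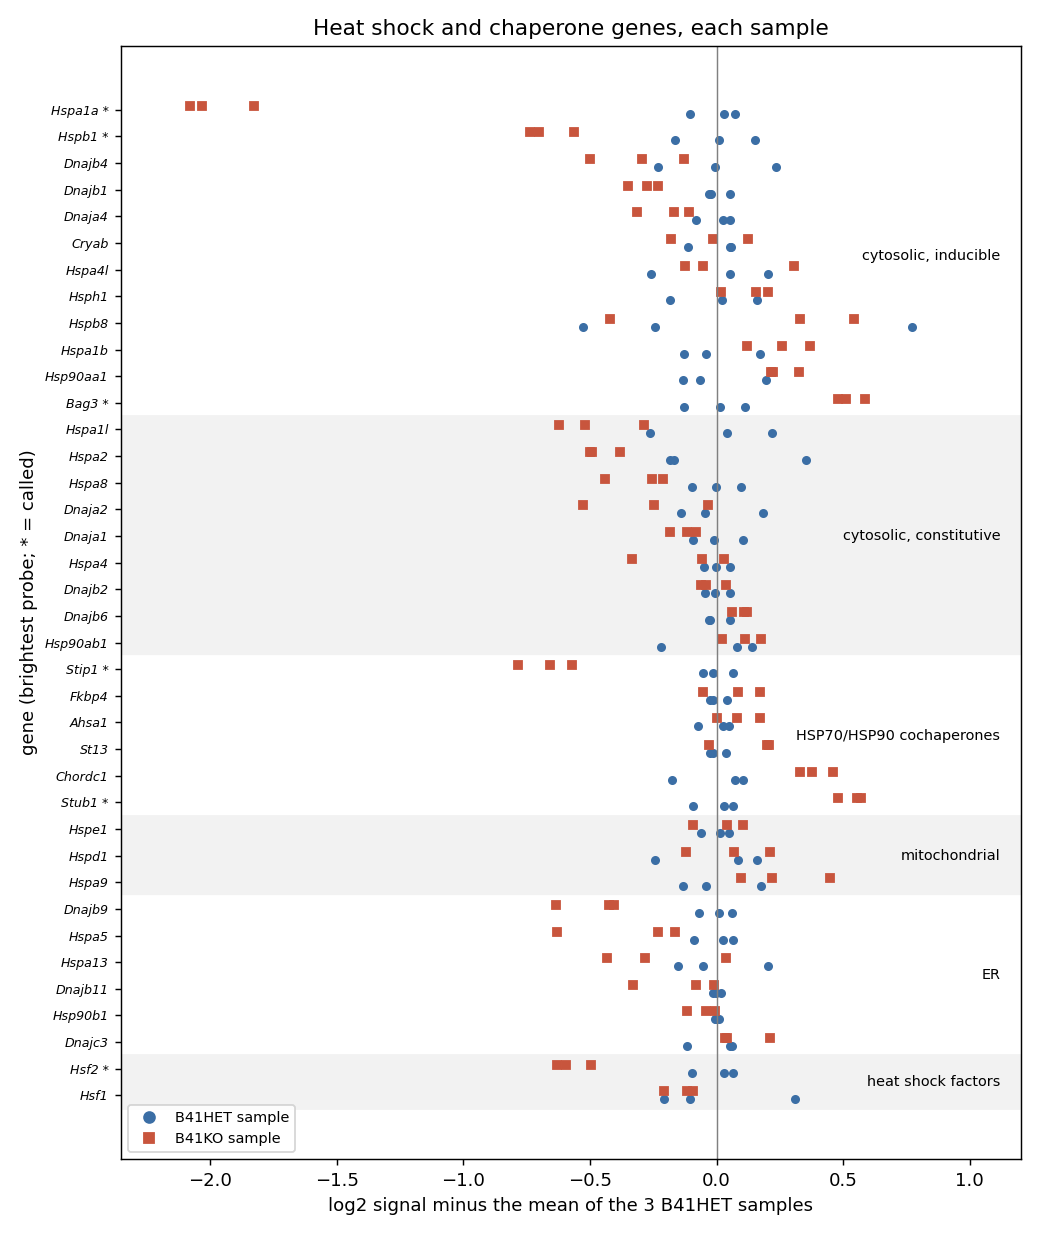
The log2 signal of each of the 38 genes in each sample, minus the mean of the 3 B41HET samples, with circles for B41HET, squares for B41KO, genes grouped by role and an asterisk on called genes. The 3 B41KO squares of *Hspa1a* lie farthest to the left, and the 6 called genes show no overlap between the genotypes.

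Over the whole arrays, 70.1% to 75.5% of probes were well above background, no spot was saturated, and samples of 1 genotype correlated at 0.989 to 0.993. All arrays lay on 1 slide, with the B41HET samples and B41KO sample 1 in its first row and B41KO samples 2 and 3 in its second. The microglia markers *Tmem119*, *P2ry12*, *Cx3cr1* and *Csf1r* were well above background on all arrays, and of the 12 microglia markers 1 was called lower, *Fcrls* (log2 fold change of -0.76, limma adjusted p of 0.00581), while 5 had positive log2 fold changes. The *Bhlhe41* probes did not check the labels, as the allele was made to end translation and their log2 fold changes were 0.38 and 0.33 (limma adjusted p of 0.33 and 0.203). Markers of other cells differed between the genotypes, and 9 of 12 neutrophil markers were called lower in B41KO (summed log2 level of 14.9 to 15.1 in B41HET and 12.6 to 12.7 in B41KO). Of the border macrophage markers 5 of 8 were called lower (11.2 to 11.3 against 10.6 to 10.8). Of the endothelial markers 2 of 8 were called lower, *Pecam1* and *Ly6c1*, while 3 had positive log2 fold changes and the median was -0.07. The summed endothelial level was 10.3 to 10.4 against 8.92 to 9.02. *Cdh5*, an endothelial adhesion gene, stood at log2 levels of 0.71 and 0.93 in the group means. Of 10 oligodendrocyte markers 1 was called lower, while their summed level was higher in B41KO without overlap (11.39 to 11.53 against 11.62 to 11.75), as was that of the astrocyte markers (11.61 to 11.69 against 11.75 to 11.83). Of the early genes of tissue dissociation 6 of 15 were called lower, namely *Atf3*, *Dusp1*, *Fosb*, *Klf6*, *Fos* and *Jun*, and all 15 had negative log2 fold changes with a median of -0.49 (16.6 to 16.7 against 16.1 in all B41KO samples). Their part in the chaperone results was not tested. In these bulk samples fewer cells of a type and less RNA per cell cannot be told apart.

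Promoters are shown of the called genes *Hspa1a*, *Hspb1*, *Stub1* and *Hsf2* and of the uncalled genes *Hspa1b* and *Hspa5*. They are shown for the sites read by heat shock factors and by basic helix-loop-helix repressors. The called genes *Stip1* and *Bag3* had windows without any of the motifs searched for, and are not shown. The sequences are the 250 bases before the annotated start, 5′ to 3′ on the strand of the gene, from RefSeq on GRCm38.p6. Capitals mark the heat shock element core GAANNTTC, the E-box CACGTG or the ER stress element, which is CCAAT and CCACG with 9 bases of any kind between them.
Hspa1a promoter, chr17:34972157-34972406, minus strand: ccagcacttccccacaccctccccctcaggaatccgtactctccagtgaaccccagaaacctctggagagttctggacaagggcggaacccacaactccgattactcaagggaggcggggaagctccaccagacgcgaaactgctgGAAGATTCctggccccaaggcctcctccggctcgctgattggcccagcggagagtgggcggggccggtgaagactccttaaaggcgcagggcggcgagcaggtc
Hspa1b promoter, chr17:34959239-34959488, minus strand: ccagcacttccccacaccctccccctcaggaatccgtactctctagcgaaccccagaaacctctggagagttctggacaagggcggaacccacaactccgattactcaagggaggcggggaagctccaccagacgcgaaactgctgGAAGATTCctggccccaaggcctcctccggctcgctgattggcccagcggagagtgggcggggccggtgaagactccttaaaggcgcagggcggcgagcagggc
Hspb1 promoter, chr5:135887669-135887918, plus strand: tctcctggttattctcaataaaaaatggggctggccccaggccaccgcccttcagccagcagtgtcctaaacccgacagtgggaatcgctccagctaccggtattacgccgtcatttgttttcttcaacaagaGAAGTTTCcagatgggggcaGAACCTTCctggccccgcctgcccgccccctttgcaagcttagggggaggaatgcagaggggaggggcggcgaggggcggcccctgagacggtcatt
Stub1 promoter, chr17:25832920-25833169, minus strand: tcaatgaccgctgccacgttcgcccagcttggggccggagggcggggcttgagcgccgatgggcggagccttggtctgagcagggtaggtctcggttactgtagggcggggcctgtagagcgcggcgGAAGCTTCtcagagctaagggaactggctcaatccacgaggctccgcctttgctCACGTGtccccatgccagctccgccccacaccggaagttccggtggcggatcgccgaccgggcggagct
Hsf2 promoter, chr10:57486135-57486384, plus strand: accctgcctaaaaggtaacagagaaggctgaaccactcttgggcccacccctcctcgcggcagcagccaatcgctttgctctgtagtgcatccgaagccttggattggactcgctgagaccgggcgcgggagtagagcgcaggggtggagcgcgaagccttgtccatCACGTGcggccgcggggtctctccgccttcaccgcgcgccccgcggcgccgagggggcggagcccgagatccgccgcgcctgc
Hspa5 promoter, chr2:34771840-34772089, plus strand: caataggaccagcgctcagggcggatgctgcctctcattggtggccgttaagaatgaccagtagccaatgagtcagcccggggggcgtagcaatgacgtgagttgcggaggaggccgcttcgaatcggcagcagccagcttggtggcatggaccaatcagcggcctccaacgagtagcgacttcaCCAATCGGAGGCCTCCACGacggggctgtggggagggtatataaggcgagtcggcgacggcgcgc
The *Hspa1a* and *Hspa1b* windows were identical at 247 of 250 bases (98.8%), and each holds its heat shock element 104 to 97 bases before the start. *Hspb1* has 2 such cores, at 117 to 110 and 97 to 90 bases before its start. *Stub1* has 1 core and 1 E-box, and *Hsf2* an E-box without a core. *Hspa5* has 1 ER stress element at 65 to 47 bases before its start.

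Of the 38 genes, 30 had such a window. Both core motifs and the E-box read the same on either strand, so a search of 1 strand covers both, while the ER stress element was searched on both strands. A heat shock core in either phase, GAANNTTC or TTCNNGAA, which can overlap each other, stood in 12 of 30 members (40.0%) and in 14.5% of the 27025 genes with a window. The 12 were *Dnaja4*, *Dnajb4*, *Hspa1a*, *Hspa1b*, *Hspb1* and *Hsph1* of the inducible class, *Dnaja1* and *Dnajb6* of the constitutive class, the cochaperones *Fkbp4* and *Stub1*, and the mitochondrial pair *Hspd1* and *Hspe1*. None of the 5 ER chaperones with a window had one there. The E-box stood in *Dnajb9*, *Hsf2*, *Hspd1*, *Hsph1* and *Stub1*, 5 of 30 (16.7%) beside 6.86% of all genes. The ER stress element stood in *Dnajc3*, *Hsp90b1* and *Hspa5*, 3 of 30 beside 0.13% of all genes. These matches describe the windows only. Of the 12 members with a heat shock core 3 were called, *Hspa1a*, *Hspb1* and *Stub1*, as were 3 of the 18 without one, and of all tested genes with a core 5.29% were called. Of the 5 members with an E-box 2 were called, *Hsf2* lower and *Stub1* higher, beside 6.0% of all tested genes with an E-box.

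Among the inducible chaperones of the cytosol, *Hspa1a* had log2 signals of 7.62, 7.57 and 7.44 in B41HET samples 1 to 3 and 5.46, 5.72 and 5.51 in B41KO samples 1 to 3. The lowest B41HET sample stood 1.72 above the highest B41KO sample. The log2 fold change was -1.98 ± 0.10 (SE), with a limma adjusted p of 0.00157, and it was the 61st lowest of 23462 genes. An exact two-sided permutation test of this single gene gave p = 0.1, the smallest value that 3 against 3 samples allow, as it did for each of the other 5 called genes. *Hspa1a* was called with any 1 sample left out (log2 fold change of -2.06 to -1.93). With the normexp background correction, which adds an offset to each signal, its log2 fold change was -1.26 and it was called (limma adjusted p of 5.25e-05).

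*Hspa1b*, the neighbouring copy of inducible HSP70 on chromosome 17, behaved differently on its probe. Its levels were 4.30, 4.60 and 4.39 in B41HET and 4.80, 4.69 and 4.55 in B41KO, and the groups overlapped. The log2 fold change was 0.25 (95% interval of -0.03 to 0.53) and was not called (limma adjusted p of 0.269). Within each sample, the *Hspa1a* signal minus the *Hspa1b* signal fell by 2.23 on the log2 scale from B41HET to B41KO without overlap between the genotypes (exact permutation p = 0.1). The starts of these copies lie 12918 bp apart, and the testis-rich HSP70 gene *Hspa1l* of the same locus starts 547 bp from *Hspa1a*. The transcripts of *Hspa1a* and *Hspa1b* are nearly identical, and how much of each the probes read is uncertain, as probe sequences were not used here. *Hspa1l* had levels of 4.29, 4.77 and 4.59 in B41HET and 4.04, 4.27 and 3.93 in B41KO, which did not overlap, and its log2 fold change of -0.47 was not called (limma adjusted p of 0.146).

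*Hspb1*, the small heat shock protein HSP27 that keeps unfolded clients soluble, had levels of 8.30, 7.99 and 8.16 in B41HET and 7.45, 7.59 and 7.42 in B41KO. The groups were separated by 0.40, and the gene fell by 0.67 ± 0.11 on the log2 scale (SE, limma adjusted p of 0.0270). *Bag3*, a partner of HSP70 and small heat shock proteins that directs clients to autophagy, moved the other way. Its levels were 5.78, 6.02 and 5.92 in B41HET and 6.42, 6.49 and 6.38 in B41KO, again without overlap. Its log2 fold change was 0.53 ± 0.089 (SE, limma adjusted p of 0.0305).

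**Figure D2:**
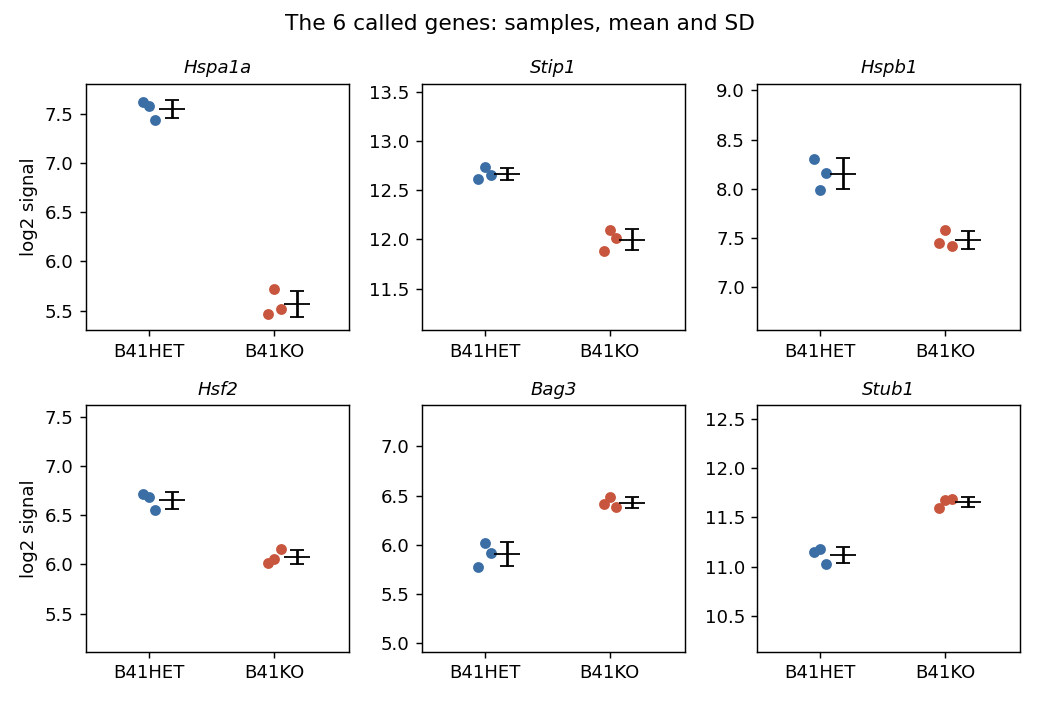
The log2 signal of the 6 called genes in each sample (points), with the mean (horizontal line) and SD (bar) of the 3 samples of each genotype; each panel has its own axis range. The genotypes are separated in every panel, by 1.72 for *Hspa1a* and by 0.36 to 0.52 for the other 5.

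*Dnajb4*, a J-domain partner of HSP70, depended on the probe. Its brightest probe read 7.93, 7.69 and 7.46 in B41HET and 7.56, 7.40 and 7.19 in B41KO, which overlapped, and was not called at a log2 fold change of -0.31 (limma adjusted p of 0.316). A second probe read 6.71, 6.67 and 6.94 in B41HET and 6.23, 6.10 and 5.83 in B41KO. The third read 6.66, 6.61 and 6.75 in B41HET and 6.08, 6.19 and 6.11 in B41KO. Both of these separated the genotypes and were called lower, at log2 fold changes of -0.72 and -0.54 (limma adjusted p of 0.039 and 0.019). With the probes of a gene averaged, *Dnajb4* was called lower (-0.52, limma adjusted p of 0.0300).

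*Hsp90aa1*, the inducible HSP90, also had probes that differed. The brightest read 10.52, 10.19 and 10.25 in B41HET and 10.55, 10.65 and 10.54 in B41KO, higher in every B41KO sample. The other read 10.36, 10.14 and 10.13 in B41HET and 9.71, 9.91 and 9.57 in B41KO, lower in every B41KO sample. Neither was called, at log2 fold changes of 0.26 and -0.48 (limma adjusted p of 0.236 and 0.078). The difference between the probes changed by 0.74 between the genotypes without overlap (exact permutation p = 0.1), so no direction can be given for *Hsp90aa1*, and its mean over probes was -0.11. *Hsph1*, an HSP110 that reloads HSP70 with ATP, had positive log2 fold changes on all 3 probes, 0.12, 0.22 and 0.27, and none was called.

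The remaining inducible members were not called. The J-domain genes *Dnajb1* and *Dnaja4* had log2 fold changes of -0.29 and -0.20 without overlap between the genotypes (limma adjusted p of 0.078 and 0.252). *Cryab*, the small heat shock protein alphaB-crystallin, which oligodendrocytes also express, was at -0.02 (95% interval of -0.29 to 0.24). *Hspa4l*, an HSP110 relative, was at 0.04 and was well above background on 3 B41HET and 2 B41KO arrays. *Hspb8*, the small heat shock partner of *Bag3*, did not stand above background on the arrays, and no fold is given.

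Of the constitutive chaperones of the cytosol 0 of 9 were called by limma, beside 5.45% of all genes, and 2 of the 9 had positive log2 fold changes, beside 51.2% of all genes. Of the 9, 3 had an unadjusted limma p under 0.05, namely *Hspa8*, *Hspa2* and *Hspa1l*, and over all genes the share was 25%. *Hspa8*, the HSC70 that folds nascent chains and feeds chaperone-mediated autophagy, was read by 4 probes. The brightest gave 14.56, 14.46 and 14.36 in B41HET and 14.25, 14.21 and 14.02 in B41KO, which did not overlap. Its log2 fold change was -0.30 (95% interval of -0.54 to -0.06, limma adjusted p of 0.139), and the other 3 probes gave 0.02, -0.45 and -0.25 with limma adjusted p of 0.92, 0.122 and 0.175. *Hsp90ab1*, the constitutive HSP90, read 11.06, 11.42 and 11.36 in B41HET and 11.30, 11.45 and 11.39 in B41KO. These overlapped, and the log2 fold change was 0.10 (95% interval of -0.19 to 0.39).

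*Hspa2*, another testis-rich HSP70, had a log2 fold change of -0.46 (limma adjusted p of 0.17) and was well above background on 3 B41HET arrays and 1 B41KO array. *Hspa4*, an HSP110 that exchanges the nucleotide of HSP70, was at -0.12. The J-domain genes *Dnaja1*, *Dnaja2*, *Dnajb2* and *Dnajb6* were at -0.13, -0.27, -0.02 and 0.10. The largest of their 95% intervals reached from -0.66 to 0.12, for *Dnaja2*.

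Of the 6 cochaperones 1 was called lower and 1 higher, beside 4.01% and 1.44% of all genes. *Stip1* encodes HOP, the scaffold that holds HSP70 and HSP90 together while a client is handed over. It read 12.62, 12.73 and 12.65 in B41HET and 11.88, 12.10 and 12.01 in B41KO, separated by 0.52. The log2 fold change was -0.67 ± 0.085 (SE, limma adjusted p of 0.0150). *Stub1* encodes CHIP, the ubiquitin ligase that marks HSP70 and HSP90 clients for the proteasome. Its levels were 11.15, 11.18 and 11.03 in B41HET and 11.60, 11.67 and 11.69 in B41KO, separated by 0.42, and it rose by 0.54 ± 0.077 (SE, limma adjusted p of 0.0204).

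*Chordc1*, an HSP90-binding cochaperone, was not called on either probe, and the probes differed in sign. The brightest gave a log2 fold change of 0.39 without overlap (limma adjusted p of 0.087), and the other gave -0.20. The immunophilin *Fkbp4*, which joins HSP90 to steroid receptors, likewise gave 0.07 and -0.28 on its probes. The differences between the probes changed by 0.58 for *Chordc1* and by 0.35 for *Fkbp4* between the genotypes, each without overlap (exact permutation p = 0.1). That p is the smallest possible here, and the pairs compared had probes of opposite sign in these same data. *Ahsa1*, the activator of the HSP90 ATPase, and *St13*, the HSP70-interacting protein HIP, were at 0.09 and 0.12 with overlapping genotypes.

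**Figure D3:**
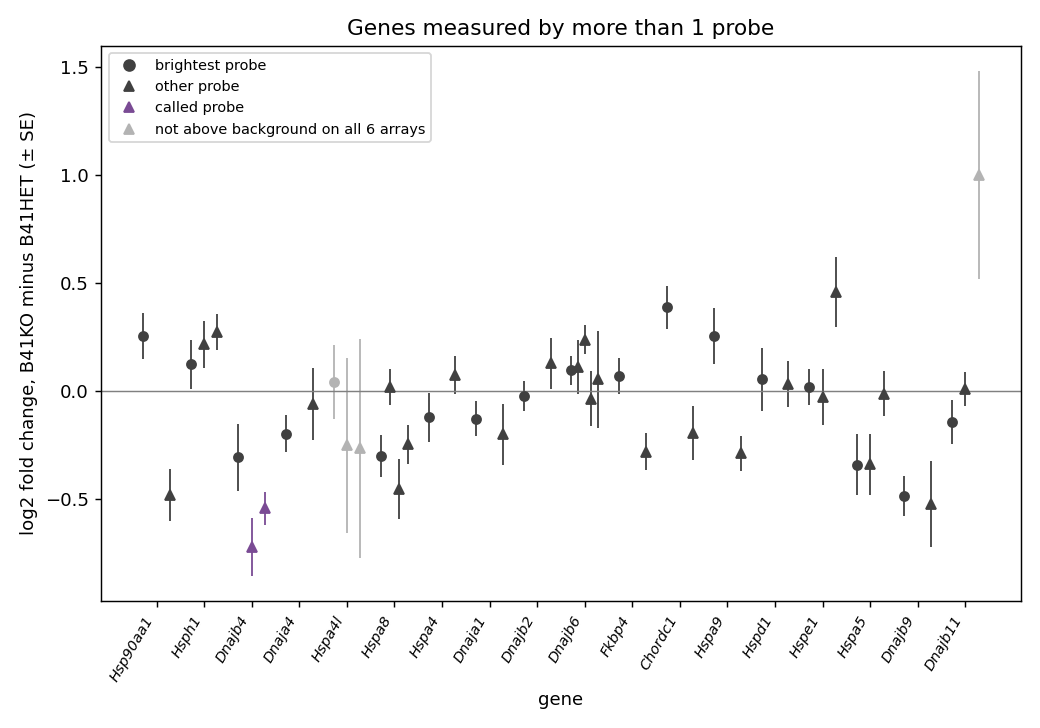
The log2 fold change (B41KO minus B41HET) with its SE for every probe of the 18 genes read by more than 1 probe, with circles for the brightest probe and triangles for the others. The called *Dnajb4* probes lie at -0.72 and -0.54, and for 11 of the 18 genes the probes fall on both sides of 0.

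Across the 18 genes with several probes, all probes were lower in B41KO for 5, all were higher for 2, and 11 had probes of both signs. Of the 6 called genes none had a second probe, so no call on a brightest probe was checked by another probe of that gene.

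No mitochondrial chaperone was called by limma, beside 5.45% of all genes, and 0 of 3 had an unadjusted p under 0.05, beside 25%. The genotypes overlapped on the brightest probe of each, while 32.2% of all genes did not overlap. *Hspd1*, the HSP60 chamber of the matrix, read 8.74, 8.66 and 8.33 in B41HET and 8.45, 8.79 and 8.65 in B41KO, a log2 fold change of 0.05 (95% interval of -0.31 to 0.41). *Hspe1*, its HSP10 lid, read 10.36, 10.32 and 10.24 in B41HET and 10.41, 10.35 and 10.21 in B41KO, a log2 fold change of 0.02 (95% interval of -0.19 to 0.22). These genes share a promoter region, and their brightest probes gave values near 0, while the dimmest of the 3 *Hspe1* probes gave 0.46 (limma adjusted p of 0.169). *Hspa9*, the mitochondrial HSP70 that pulls precursors through the inner membrane, read 11.35, 11.44 and 11.66 in B41HET and 11.58, 11.70 and 11.93 in B41KO. Its log2 fold change was 0.25 (95% interval of -0.07 to 0.58), and its other probe gave -0.29. The difference between the *Hspa9* probes changed by 0.54 between the genotypes without overlap.

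None of the 6 ER chaperones was called by limma, beside 5.45% of all genes, 1 had an unadjusted p under 0.05, beside 25%, and 1 had a positive log2 fold change, beside 51.2%. *Dnajb9*, the J-domain protein ERdj4 that sends misfolded proteins to degradation, lay just under the threshold on fold. It read 8.47, 8.41 and 8.33 in B41HET and 7.77, 8.00 and 7.98 in B41KO without overlap. Its log2 fold change was -0.49 ± 0.092 (SE, limma adjusted p of 0.0401), and its other probe gave -0.52 (limma adjusted p of 0.195).

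*Hspa5* encodes BiP, the ER HSP70 that holds the sensors of the unfolded protein response inactive. It read 13.06, 13.18 and 13.22 in B41HET and 12.99, 12.52 and 12.92 in B41KO, a log2 fold change of -0.34 (95% interval of -0.69 to 0.0083, limma adjusted p of 0.227). The genotypes did not overlap on it, and B41KO sample 2 stood lowest. Its other probes gave -0.34 and -0.01. *Hsp90b1*, the ER HSP90 known as GRP94, read 10.47, 10.48 and 10.47 in B41HET and 10.35, 10.46 and 10.43 in B41KO, a log2 fold change of -0.05 (95% interval of -0.22 to 0.11). *Dnajb11*, *Hspa13* and *Dnajc3*, which are a BiP partner, an ER HSP70 relative and an inhibitor of the kinase PERK, were at -0.14, -0.23 and 0.10 with overlapping genotypes. The 3 genes with an ER stress element, *Hspa5*, *Hsp90b1* and *Dnajc3*, thus had values on both sides of 0, and none was called.

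*Hsf2*, a heat shock factor active in development and in proteotoxic stress, was called lower, and *Hsf1*, the main stress-activated factor, was not. *Hsf2* read 6.72, 6.68 and 6.55 in B41HET and 6.02, 6.06 and 6.16 in B41KO, a log2 fold change of -0.57 ± 0.081 (SE, limma adjusted p of 0.0199). *Hsf1* read 10.86, 10.35 and 10.45 in B41HET and 10.43, 10.34 and 10.46 in B41KO. These overlapped, with B41HET sample 1 highest, and the log2 fold change was -0.14 (95% interval of -0.51 to 0.23).

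Between the classes, the median log2 fold change was 0.0094 for the inducible chaperones (-1.98 to 0.53), -0.13 for the constitutive ones (-0.47 to 0.10), 0.10 for the cochaperones (-0.67 to 0.54), 0.05 for the mitochondrial ones (0.02 to 0.25) and -0.18 for the ER chaperones (-0.49 to 0.10). By sample, with each gene set to its mean over the 6 samples, the median ER chaperone stood at 0.05 to 0.08 in B41HET and at -0.11 to -0.0087 in B41KO. The constitutive median stood at 0.03 to 0.09 in B41HET and at -0.15 to 0.0030 in B41KO, and the cochaperone median at -0.09 to -0.04 and at 0.05 to 0.14. The medians of the inducible and the mitochondrial class overlapped between the genotypes. Under the 75th percentile shift the cochaperone median was 0.088 beside 0.095 for all genes, so its direction relative to all genes depended on the scaling. The members share samples, and no test was made between classes. The widest range of single values was that of the inducible class, which held the lowest of the 38 values, *Hspa1a*.

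Other genes of the pathway, taken as lists by function, had 3 of 62 measured genes called, beside 5.45% of all genes. Of the TRiC chaperonin, the chamber that folds actin and tubulin, 0 of 8 subunits were called by limma. Of prefoldin, which delivers clients to TRiC, 1 of 6 was called, *Pfdn2* at 0.54 (limma adjusted p of 0.0258). Of the other HSP70 and HSP90 partners, 14 of 15 listed genes were measured and 1 was called, *Fkbp5*, a glucocorticoid-induced immunophilin, at 0.54 (limma adjusted p of 0.0332). None of 12 other mitochondrial chaperones and proteases was called by limma. Of 22 other ER folding and stress genes 1 was called, *Ddit3*, the stress-induced factor CHOP, which fell by 0.77 on the log2 scale (limma adjusted p of 0.0319). An unadjusted limma p under 0.05 was found for 4 of 8, 5 of 6, 7 of 14, 1 of 12 and 5 of 22 genes of these lists in the order given, beside 25% of all genes. The medians of the 5 lists were -0.19, 0.18, 0.10, 0.01 and -0.02.

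The second row of the slide held B41KO samples only, so a fit with the row as a block compared 1 B41KO sample with the 3 B41HET samples beside it and assumed that the lone sample varied as the other arrays did. The log2 fold changes of *Hspa1a*, *Stip1*, *Hspb1*, *Hsf2*, *Bag3* and *Stub1* in that comparison were -2.08, -0.78, -0.70, -0.63, 0.51 and 0.48. Their direction was fixed in advance, as the genotypes did not overlap on these genes. The limma adjusted p was 0.0215 for *Hspa1a* and 0.0696 to 0.194 for the other 5.

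With 1 sample left out at a time, the 5 genes kept their size of change and mostly missed the threshold on p. The log2 fold change was -0.72 to -0.61 for *Stip1*, -0.75 to -0.59 for *Hspb1*, -0.62 to -0.54 for *Hsf2*, 0.46 to 0.58 for *Bag3* and 0.49 to 0.57 for *Stub1*. *Stip1* was called without B41KO sample 1 or 2 and *Hsf2* without B41HET sample 3 or B41KO sample 3, while *Hspb1*, *Bag3* and *Stub1* were not called in these fits (limma adjusted p of 0.0566 to 0.0914). With 5 samples the calls over all genes were also fewer, 369 to 675 beside 1279. With the normexp background correction *Hspb1*, *Hsf2*, *Bag3* and *Stub1* had log2 fold changes of -0.499, -0.35, 0.29 and 0.46 and were not called, on fold rather than on p (limma adjusted p of 0.00735 to 0.0443).

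**Figure D4:**
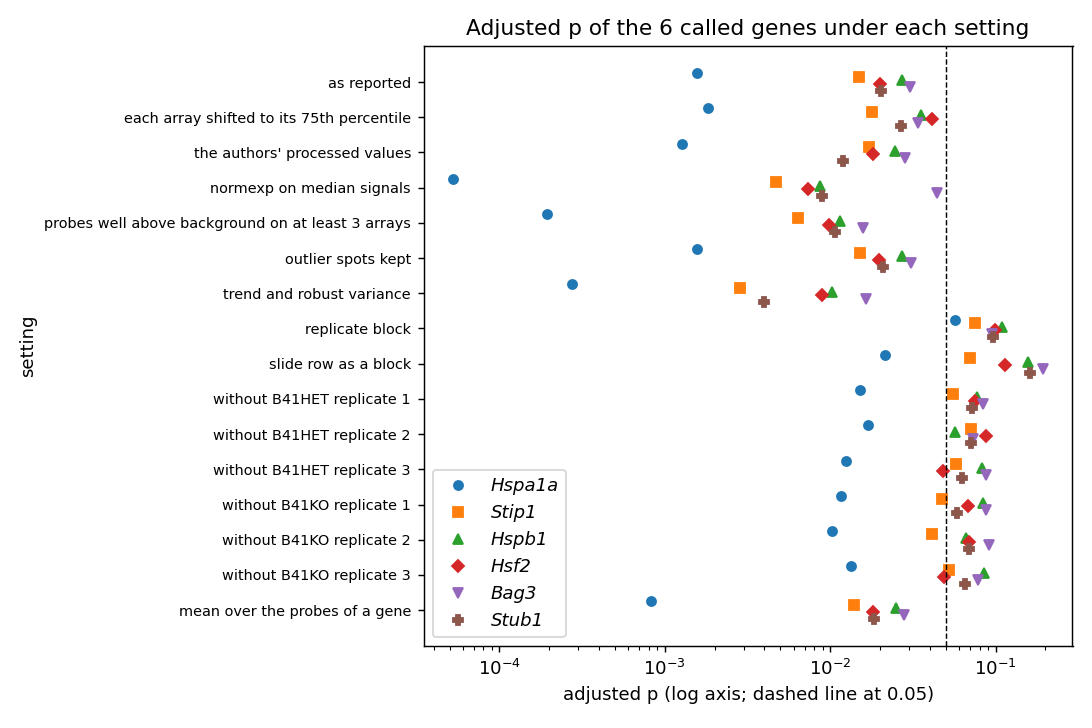
The limma adjusted p (log axis, dashed line at 0.05) of the 6 called genes as reported and under each other way of processing or fitting; a call also needed a log2 fold change of 0.5 or more. *Hspa1a* lies left of the line in every setting except the replicate block, while the other genes cross it when a block is fitted or, in most cases, when 1 sample is left out.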

How the data were processed

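The authors sorted microglia, labelled total RNA with Cy3 and hybridised each sample to an Agilent array. The deposited scanner output holds intensity values from Feature Extraction 11.5.1.1, which are corrected for background and spatial trend array by array, with no scaling of one array to another. The deposited table of processed values holds log2 intensity with the same quantiles in all 6 columns (Spearman correlation with the array of its own sample of 0.999999 to 1), and was used as an alternative.

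Control spots were removed, and so were outlier spots on the array concerned. Processed intensities were put on the log2 scale, quantile normalized, averaged over the spots of a probe and tested with limma 3.58.1 in R 4.3.3, with version 1.17.8 of the data.table package, with genotype as the only term. The study's methods name quantile normalization, limma and the thresholds on adjusted p and fold, and the other steps were chosen here. The Benjamini-Hochberg adjustment ran over the 56601 tested probes, those with at least 2 values per genotype. No filter on dim probes was used. Probes were named through RefSeq genes on GRCm38.p6, which named 33767 of 56605 probes (59.7%). The array design names mm9, so coordinates are given only for the RefSeq promoters. The brightest probe, by its mean over all samples, stood for a gene. The summed level of a marker list is the log2 of its summed signals. The 3 samples per genotype, with no counts behind an array value, limit the precision.

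The members and lists were chosen with earlier results of these data known. Values per sample were given for called genes and genes with a called probe, for the lead chaperones of each compartment, for *Hsf1*, and for the member of each class with the largest change. In the constitutive class that was *Hspa1l*. The alternatives were a 75th percentile shift, the authors' values, normexp on the median signals with an offset of 50, a filter on background, outlier spots kept, trended and robust variances, a block for the replicate number or for the row of the slide, leaving out each sample in turn, no fold threshold or a fold of 1.5, and the mean over probes. The fit was tested on simulated data. Python 3.11.15, pandas 2.3.3 and matplotlib 3.10.9 were used for promoters and figures.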

Additional observations from a re-analysis of the deposited data

How the results depend on the processing

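As reported, 6 genes (2 higher, 4 lower) and 8 probes of the set were called, and 3 genes of the other pathway lists. With normexp these were 2 genes (0 higher, 2 lower) and 3 probes. With a fold of 1.5 they were 3 genes (0 higher) and 4 probes, with 1 in the other lists. Without a fold threshold the other lists had 5. Of all genes 791 were called with normexp, 999 with a fold of 1.5 and 1773 without a fold threshold, beside 1279 as reported. With the slide row as a block 1 gene (0 higher, 1 lower) and 1 probe were called and 0 in the other lists. Leaving out 1 sample at a time left 1 to 2 genes (0 higher, 1 to 2 lower), 1 to 3 probes and 0 to 1 in the other lists, and 369 to 675 of all genes beside 1279 with all samples. Same-numbered samples did not deviate together (correlations of 0.0276, 0.0136 and 0.0478), so the numbers were not taken as pairs, and with the replicate block 0 genes (0 higher, 0 lower), 0 probes and 0 in the other lists were called, beside 21 of all genes by limma, with *Hspa1a* at an adjusted p of 0.0570. The ER median was -0.12 under the 75th percentile shift, where that of all genes was 0.095, and -0.12 under normexp, -0.14 with the slide row as a block and with the mean over probes, and -0.22 to -0.13 with 1 sample left out. The inducible median was -0.12 with the mean over probes and -0.10 to 0.060 with 1 sample left out, where the constitutive median was -0.19 to -0.10 and the mitochondrial one -0.014 to 0.14. Over the 38 genes and the alternatives, 28 of 645 values changed sign, 0 of them of a called gene, while 44 lost a call and 2 gained one (*Dnajb4* and *Dnajb9*). Why values moved was not tested, except that a block or fewer samples leave fewer degrees of freedom for the spread. Dim probes and the number of arrays limit what could be called.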
